A study of Mus musculus with 8 samples.

Results

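The CC chemokine genes of lung neutrophils were examined during pneumonia. The genes were 10 members of the CC family, namely Ccl2, Ccl3, Ccl4, Ccl5, Ccl6, Ccl7, Ccl9, Ccl12, Ccl17 and Ccl22. They were chosen with earlier results of these data known, so their counts do not stand for the whole family. The other measured CC chemokines are given further below. Each of the 10 was found through the RefSeq identifier of its row. All 10 had a row, each gene had 1, and together they were 10 of 24625 rows in the table. Samples came from wild type (WT) mice of 6 to 12 weeks of age that had received Streptococcus pneumoniae (SP) or the same volume of phosphate-buffered saline (PBS) into the left lung through the trachea, at 2.3 µl per g of body weight. After 24 h, cells carrying Ly6G, a surface protein of mouse neutrophils, were captured from digested lung with magnetic beads, and RNA of each sample was hybridised to 1 Affymetrix Mouse Gene 1.1 ST array, 4 for SP and 4 for PBS. The study's methods describe a check of purity, by stained cells, in the pneumonia samples. The study describes the samples as taken each from a mouse, and the labels give no animal numbers.

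Chemokines are small secreted proteins that steer the movement of leukocytes through receptors coupled to G proteins, and the CC family is named for a pair of adjacent cysteines. Ccl2, Ccl7 and Ccl12 encode the monocyte chemoattractants, which act on CCR2. Ccl3, Ccl4 and Ccl5 encode the macrophage inflammatory proteins and RANTES, which attract monocytes, T cells and NK cells, and the first and the last act on CCR1. Ccl6 and Ccl9 encode ligands of CCR1 that myeloid cells make without stimulation, and Ccl17 and Ccl22 encode the ligands of CCR4, a receptor of T cells.

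Values are log2 expression after the authors' normalization, so 1 unit is a 2-fold difference. The scale does not allow the level of one gene to be set against that of another. Array medians lay between 6.06 and 6.20 in PBS and between 5.78 and 5.91 in SP. A gene was called when limma gave an adjusted p of at most 0.05 over all rows, and called at 2-fold when the difference also reached 1 log2 unit.

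Of the 10 chemokine genes, 8 were called at 2-fold, all of them higher in SP, against 6.37% of all rows called higher and 11.3% called lower at that size. The other two, Ccl6 and Ccl22, were not called. In the same 8 genes every SP value lay above every PBS value, against 27.2% of all rows. Counted by adjusted p alone, 44.1% of rows were called in either direction and 21.5% as higher. The median difference of the 10 genes was 2.59 log2 units, beside 0.10 over all rows. Centring each array on its median moved the median over all rows to 0.38, and 2375 rows were higher and 1896 lower at 2-fold, in place of 1568 and 2773. After another quantile normalization these counts were 1878 and 2198. These 8 calls at 2-fold remained 8 under the other tests and scalings and with PBS replicate 2 and SP replicate 3 left out together. They were 7 without PBS replicate 2 and 7 without SP replicate 4, since Ccl9 then fell under 2-fold (0.91 and 0.96).

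**Figure D1:**
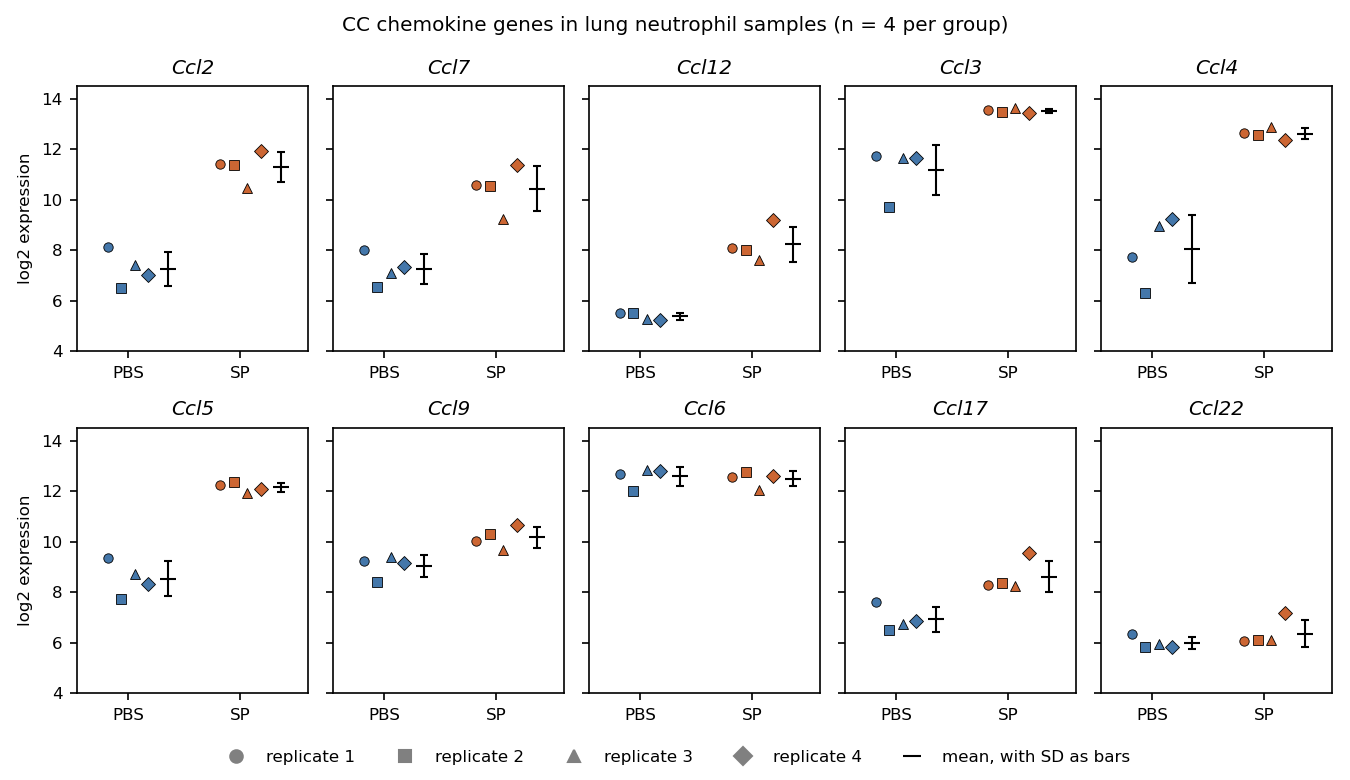
Log2 expression (vertical axis) of each CC chemokine gene in the 4 PBS and 4 SP samples, with replicates by symbol and the mean and SD beside them. In 8 panels all SP points lie above all PBS points, while the groups overlap for Ccl6 and Ccl22.

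The monocyte chemoattractants were all higher in SP. Ccl2 (NM_011333) lay at 8.11, 6.49, 7.41 and 7.03 in PBS replicates 1 to 4 and at 11.40, 11.39, 10.46 and 11.92 in SP replicates 1 to 4. The lowest SP value stood 2.35 log2 units above the highest PBS value, and the difference was 4.03 with a 95% interval of 3.13 to 4.93 (16.4-fold, adjusted p = 0.000111 by limma). Ccl7 (NM_013654), whose product also acts on CCR1, lay at 8.02, 6.56, 7.12 and 7.36 in PBS and at 10.59, 10.54, 9.22 and 11.37 in SP. It had the widest spread of the 10 genes within SP (10.43 ± 0.89, SD, n = 4), and it rose 8.99-fold (adjusted p = 0.000881 by limma). Ccl12 (NM_011331), a gene of mice without a direct human counterpart, lay at 5.50, 5.53, 5.29 and 5.25 in PBS and at 8.09, 8.02, 7.62 and 9.19 in SP. All 4 of its PBS values were below the median of their own array, so that the size of its 7.16-fold rise (difference 2.84, interval 2.15 to 3.52, adjusted p = 0.000163 by limma) rests on a dim baseline. In these genes SP replicate 3 was the lowest and SP replicate 4 the highest of the SP samples.

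Ccl3, Ccl4 and Ccl5 were also higher in SP, with little spread among the SP samples. Ccl4 (NM_013652) lay at 7.72, 6.31, 8.97 and 9.22 in PBS and at 12.64, 12.55, 12.89 and 12.38 in SP. The 4 SP samples were close together (SD 0.21) and the PBS samples were far apart (SD 1.34), and the difference of 4.56, or 23.5-fold, was the largest of the 10 genes (interval 3.23 to 5.88, adjusted p = 0.000428 by limma). Ccl3 (NM_011337) lay at 11.73, 9.72, 11.63 and 11.63 in PBS and at 13.54, 13.49, 13.62 and 13.41 in SP. Only PBS replicate 2 stood away from its group, and without it the difference fell from 2.34 (5.05-fold, adjusted p = 0.00265 by limma) to 1.85 (adjusted p = 1.2e-05 by limma), while that of Ccl4 fell to 3.98 (adjusted p = 0.000141 by limma). Ccl5 (NM_013653), which also attracts eosinophils, lay at 9.37, 7.72, 8.72 and 8.32 in PBS and at 12.26, 12.35, 11.95 and 12.08 in SP. The SP values were again tight (SD 0.18), and the 12.4-fold rise had the lowest adjusted p of the 10 genes (5.83e-05 by limma, difference 3.63, interval 2.92 to 4.34).

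Of the CCR1 ligands of resting myeloid cells, Ccl9 changed least among the 8 called genes and Ccl6 was not called. Ccl9 (NM_011338) lay at 9.26, 8.41, 9.39 and 9.14 in PBS and at 10.05, 10.32, 9.67 and 10.66 in SP. Its groups were separated by 0.28 log2 units, the narrowest gap of the 8 called genes, and it rose 2.18-fold (difference 1.12, interval 0.52 to 1.73, adjusted p = 0.00951 by limma). Ccl6 (NM_009139) lay at 12.68, 12.02, 12.84 and 12.80 in PBS and at 12.56, 12.76, 12.06 and 12.62 in SP. The groups overlapped throughout, and the difference was -0.08 with an interval of -0.58 to 0.41 (adjusted p = 0.754 by limma), so a 2-fold change in either direction lies outside the interval. Its sign turned with the arrays centred on their medians (0.20) and without PBS replicate 3 or SP replicate 3.

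The pair of CCR4 ligands, best known from dendritic cells and macrophages, gave 1 call. Ccl17 (NM_011332) lay at 7.61, 6.50, 6.73 and 6.87 in PBS and at 8.29, 8.38, 8.25 and 9.54 in SP. It rose 3.22-fold (difference 1.69, interval 0.91 to 2.46, adjusted p = 0.00458 by limma), with SP replicate 4 well above the other SP samples. Ccl22 (NM_009137) lay at 6.34, 5.83, 5.97 and 5.83 in PBS and at 6.09, 6.11, 6.10 and 7.18 in SP. Here SP replicate 4 was the single sample above PBS replicate 1, and 3 of the 4 PBS values were below the median of their array. The difference was 0.38 with an interval of -0.21 to 0.96 (adjusted p = 0.243 by limma), and 0.11 without SP replicate 4. It was called with the arrays centred on their medians (0.66, adjusted p = 0.0276 by limma) and after another quantile normalization (0.68, adjusted p = 0.0322 by limma).

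**Figure D2:**
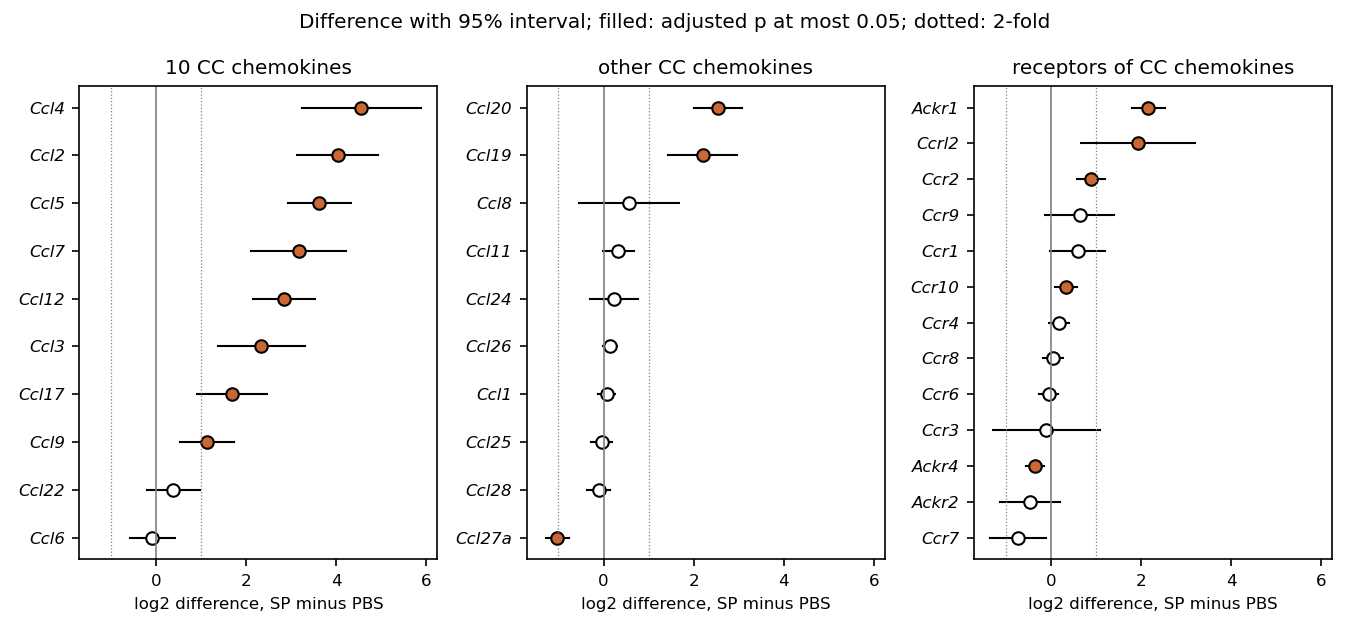
Log2 difference of SP minus PBS (horizontal axis) with its 95% interval for the 10 chemokine genes, the other CC chemokines and the receptors, where filled points have an adjusted p of at most 0.05 and dotted lines mark 2-fold. The called chemokine genes run from 1.12 for Ccl9 to 4.56 for Ccl4, and most other CC chemokines lie near 0.

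Related ligands were then compared within each array, since a constant added to all values of an array leaves the difference between 2 genes unchanged. Quantile normalization can still move such a difference. The test was an exact permutation test, two-sided, of the 70 ways to arrange the samples, and 0.0286 is the smallest p it can give. Each of the 5 pairs had an exact p of 0.0286, and an exact permutation p of 0.0286 after adjustment over the 5 pairs. In Ccl2 minus Ccl12 and Ccl22 minus Ccl17, however, 1 gene was dim in PBS (Ccl12 below the median of its array in 4 of 4 PBS samples, Ccl22 in 3 of 4), so these values do not show how unequally the genes changed. Ccl4 minus Ccl3 was -3.12 ± 0.73 in PBS and -0.90 ± 0.12 in SP (mean ± SD, n = 4), so that Ccl4 rose 4.66-fold more than Ccl3 on this scale. Ccl3 lay at 13.41 to 13.62 in SP, and whether the top of the scale limited its rise was not tested. Ccl2 gained 0.87 log2 units over Ccl7. Ccl2 minus Ccl12 differed by 1.19 between groups, and its call was lost after another quantile normalization (1.14) and without any 1 of the 4 SP samples (adjusted exact permutation p = 0.0571 in each case). Ccl9 gained 1.21 log2 units over Ccl6, from -3.53 ± 0.12 to -2.33 ± 0.25 (SD, n = 4). Ccl22 minus Ccl17 was -0.94 ± 0.27 in PBS and -2.25 ± 0.10 in SP. For Ccl22 minus Ccl17 the 4 SP values lay within 0.22 log2 units of each other, from -2.37 to -2.15, although SP replicate 4 was high for both genes.

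**Figure D3:**
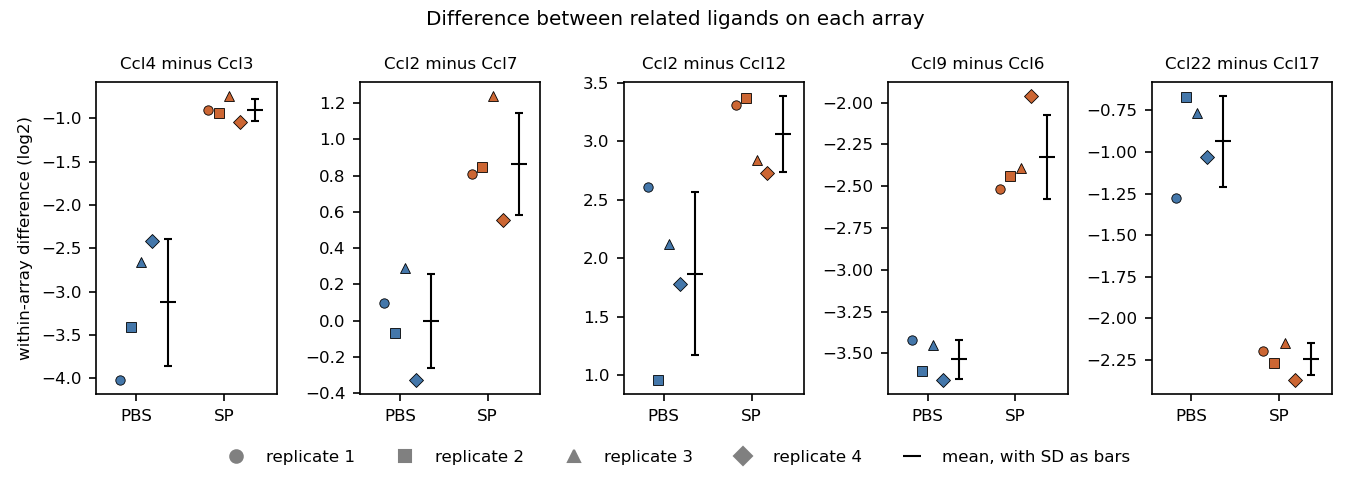
Difference in log2 expression between the named ligands on each array (vertical axis, a separate scale per panel) in PBS and SP, with replicates by symbol and the mean and SD. In each panel the 4 SP points lie apart from the 4 PBS points, below them for Ccl22 minus Ccl17 and above them in the other panels.

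Samples departed from their group together in several of the genes. PBS replicate 2 was the lowest PBS sample in 9 of the 10 genes, the exception being Ccl12. SP replicate 3 was the lowest SP sample in 7 genes (Ccl2, Ccl5, Ccl6, Ccl7, Ccl9, Ccl12 and Ccl17) and the highest in Ccl3 and Ccl4. SP replicate 4 showed the reverse, as the highest in 6 genes (Ccl2, Ccl7, Ccl9, Ccl12, Ccl17 and Ccl22) and the lowest in Ccl3 and Ccl4. Ccl3 and Ccl4 thus ran opposite to the monocyte chemoattractants among the SP samples.

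Markers of some other cells moved with these departures, and markers of others did not. Neutrophil markers were bright on every array, with a mean of the 8 measured genes of 12.7 to 13.1 in PBS and 12.5 to 13.0 in SP, and Retnlg and S100a8 were the brightest (Ly6g had no matched row). Of 9 measured monocyte and macrophage markers, 3 were called at 2-fold and higher in SP (Fcgr4, Adgre1 and Ms4a7), and none lower. The shares of all rows at that size were 6.37% higher and 11.3% lower. Fcgr4 lay at 12.51 to 12.67 in SP and was lowest in SP replicate 4, while Adgre1 and Ms4a7 were lowest in SP replicate 3. The mean of the 9 was 9.11, 8.18, 8.92 and 8.82 in PBS replicates 1 to 4 and 9.61, 9.52, 8.50 and 9.76 in SP replicates 1 to 4. PBS replicate 2 and SP replicate 3 were thus also the lowest for the mean of these markers, and SP replicate 4 the highest of the SP samples. Among the SP samples the same held for the alveolar macrophage markers (-0.18 and 0.44 from the group mean in replicates 3 and 4), the epithelial markers (-0.49 and 0.49) and the endothelial markers (-0.63 and 0.50). PBS replicate 2 was also the lowest PBS sample for neutrophil, T cell, NK cell, and eosinophil and mast cell markers. It was the highest for epithelial and endothelial ones. T cell, NK cell and B cell markers were below the group mean in SP replicate 3 (-0.45, -0.35 and -0.50). They were also below it in SP replicate 4 (-0.51, -0.35 and -0.46), the sample highest in 6 chemokine genes. The complement genes C1qa, C1qb and C1qc, defining genes of tissue macrophages, were present in both groups but not called, with differences of 0.02, 0.13 and -0.30. The part of other cells in the chemokine differences was not tested, and fewer cells of a type and less RNA per cell cannot be told apart in such samples.

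Other cell types differed in another way, and their counts stand beside 6.37% of all rows called higher and 11.3% called lower at 2-fold. Of 8 measured alveolar macrophage markers, 5 were called at 2-fold and lower in SP and none higher at that size. Chil3, the brightest of the 8, was called as higher in SP but under 2-fold (0.97, adjusted p = 0.0216 by limma). Sample means of the list were 9.11 to 9.84 in PBS and 7.96 to 8.59 in SP, the highest SP mean being that of replicate 4. Of 9 dendritic cell markers, 1 was called at 2-fold and higher (Itgae) and 1 lower (Cd209a). Ccr7, the brightest of them, lay above the array median on every array. Its difference of -0.72 was not called (adjusted p = 0.0577 by limma), but 6 of 15 alternatives called it. Flt3, Zbtb46, Xcr1, Siglech and Batf3 lay below the array median on every array. T cell markers had means of 5.38 to 6.05 in PBS and 5.50 to 6.59 in SP, and none of 7 was called at 2-fold, while 1 of 8 NK cell markers was (Klrk1, higher). None of 8 eosinophil and mast cell markers was called at 2-fold, with means of 4.98 to 5.63 in PBS and 5.19 to 5.43 in SP. All 6 B cell markers were lower at 2-fold. So were 4 of 7 epithelial and 5 of 7 endothelial markers, which were bright in PBS (means of 12.1 to 12.5 and 10.2 to 11.2).

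**Figure D4:**
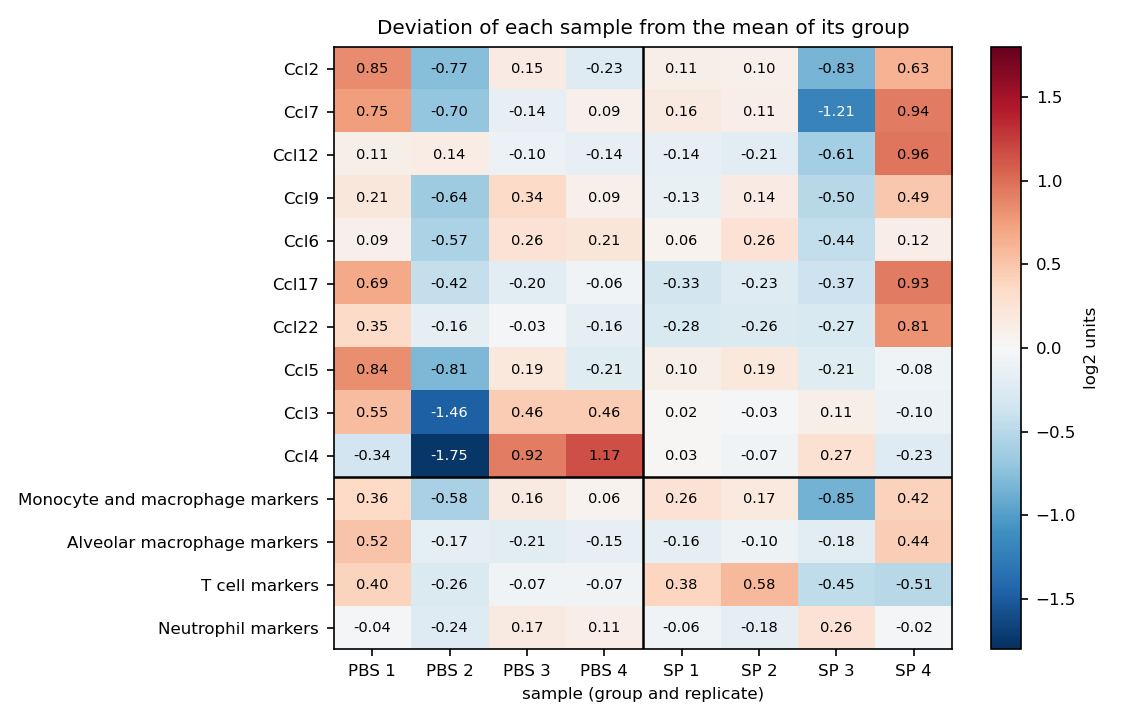
Deviation in log2 units of each sample (columns) from the mean of its own group for the chemokine genes and for the mean of 4 marker lists (rows), with red above and blue below the group mean. SP replicate 3 is -1.21 for Ccl7 and -0.85 for the monocyte and macrophage markers, while it is 0.27 for Ccl4 and 0.26 for the neutrophil markers.

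Position in the genome was described next, since most CC chemokine genes lie in a few runs. In the RefSeq annotation of the mouse assembly GRCm38.p6, 8 of the 10 genes lie on chromosome 11 and the other two on chromosome 8. Among measured genes, the first run of chromosome 11 holds Ccl2, Ccl7, Ccl11, Ccl12, Ccl8 and Ccl1 in this order, and the second holds Ccl5, Ccl9, E230016K23Rik, Ccl6, Ccl3 and Ccl4. Genes that were not called lay beside called ones. Ccl11, an eosinophil chemoattractant that lies between Ccl7 and Ccl12, differed by 0.33 (adjusted p = 0.0949 by limma) and was called with the arrays centred (0.61, adjusted p = 0.00316 by limma). Ccl8, on the other side of Ccl12, differed by 0.57 with a wide interval of -0.55 to 1.68 (adjusted p = 0.342 by limma). Ccl1, a ligand of CCR8, differed by 0.07 (adjusted p = 0.471 by limma), by 0.35 with the arrays centred (adjusted p = 0.021 by limma) and by -0.087 after another quantile normalization. Ccl6, not called, lies between called genes, with Ccl3 on one side and E230016K23Rik, a noncoding transcript, on the other. E230016K23Rik differed by 1.90 (interval 0.70 to 3.10, adjusted p = 0.0195 by limma). Its groups overlapped, with SP replicate 3 the lowest SP sample.

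Genes that flank the runs were called in some cases and not in others. 5530401A14Rik, next to Ccl2, was dim and differed by 0.10 (adjusted p = 0.375 by limma). Heatr9, next to Ccl5, was 2.33-fold higher (adjusted p = 0.0005 by limma), although 7 of its 8 values were below the array median. Wfdc17, next to Ccl4, was bright and not called (13.23 ± 0.22 in PBS and 13.34 ± 0.13 in SP, SD, n = 4). Ccl22 and Ccl17 are neighbours among measured genes, flanked by Pllp, a myelin protein gene that fell by 2.66 on the log2 scale, and Ciapin1, which rose 2.87-fold (adjusted p = 1.55e-05 and 0.000156 by limma). The annotated extent of Ccl3 overlaps that of Ccl4, and Ccl6 that of E230016K23Rik. Whether probes of overlapping or related genes shared signal was not tested.

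**Figure D5:**
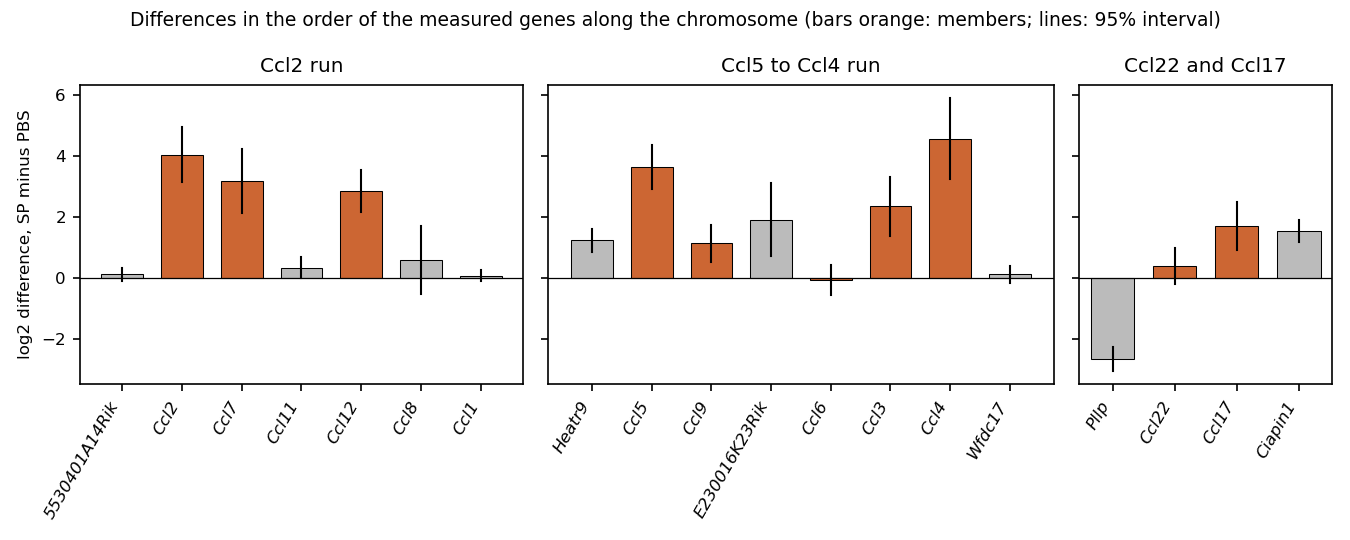
Log2 difference of SP minus PBS (bars, with 95% intervals as lines) for measured genes in the order in which they lie along the chromosome, in 3 stretches, with the 10 chemokine genes in orange and other genes in grey. Ccl11 (0.33), Ccl8 (0.57) and Ccl6 (-0.08) were not called and lie beside genes that rose by more than 2 log2 units.

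Promoter sequence was available for 6 of the 10 genes (Ccl3, Ccl6, Ccl9, Ccl12, Ccl17 and Ccl22), as windows of 250 bases before and 50 after the transcription start in RefSeq on GRCm38.p6. Matches were sought on both strands to the NF-κB site, to the core of the interferon-stimulated response element (GAAA, any 2 bases, GAAA) and to the AP-1 site TGANTCA, which are held by 4.51%, 3.44% and 7.81% of 32851 such windows. Only Ccl9 held any, with an AP-1 match that begins at position -53 from the start and an NF-κB match on the opposite strand that begins at -35, which do not overlap. No match says only that these letters are not in the window. The 150 bases before the start are shown for Ccl9 and Ccl6, which lie on either side of E230016K23Rik and of which 1 was called, for Ccl3, next to Ccl6, and for Ccl12, which had the largest rise among genes with a window. They lie at chr11:83578637-83578786, chr11:83593088-83593237 and chr11:83649379-83649528 on the minus strand and at chr11:82101695-82101844 on the plus strand, and are written 5′ to 3′ along the gene with the AP-1 and NF-κB matches in capitals.
Ccl9: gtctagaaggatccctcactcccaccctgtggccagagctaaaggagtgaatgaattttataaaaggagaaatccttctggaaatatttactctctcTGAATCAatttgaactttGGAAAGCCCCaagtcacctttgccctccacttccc
Ccl6: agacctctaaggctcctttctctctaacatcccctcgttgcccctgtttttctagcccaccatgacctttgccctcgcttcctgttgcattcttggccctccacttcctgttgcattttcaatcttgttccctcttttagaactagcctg
Ccl3: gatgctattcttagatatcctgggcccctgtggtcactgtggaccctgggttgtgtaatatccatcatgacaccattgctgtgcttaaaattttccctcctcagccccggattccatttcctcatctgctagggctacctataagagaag
Ccl12: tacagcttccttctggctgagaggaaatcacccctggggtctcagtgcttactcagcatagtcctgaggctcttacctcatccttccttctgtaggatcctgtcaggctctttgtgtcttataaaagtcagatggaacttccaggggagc

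The remaining CC chemokines gave fewer calls. Of 11 listed, 10 had a matched row (Ccl21a did not), and 2 were called at 2-fold and higher and 1 lower in SP, with a median difference of 0.19. Over all rows, 6.37% were called higher and 11.3% lower at that size. Ccl20, the ligand of CCR6, rose 5.80-fold (5.12 ± 0.12 in PBS and 7.66 ± 0.51 in SP, SD, n = 4, adjusted p = 8.07e-05 by limma). Ccl19, a ligand of CCR7 that guides T cells and dendritic cells, rose 4.59-fold (6.00 ± 0.43 and 8.20 ± 0.66, adjusted p = 0.00118 by limma). All 4 PBS values of Ccl20 and 3 of 4 of Ccl19 were below the median of their array, so the sizes of these rises rest on dim baselines. Ccl27a, a chemokine best known from skin, was 2.04-fold lower (6.95 ± 0.21 and 5.93 ± 0.06, adjusted p = 0.000176 by limma), and its difference of -1.03 shrank to -0.64 after another quantile normalization. Ccl1, Ccl11, Ccl24, Ccl25, Ccl26 and Ccl28 lay below the median of all 8 arrays, and none of these was called. With the arrays centred 4 of them were called, Ccl1 and Ccl11 as above, Ccl24 (0.51, adjusted p = 0.0498 by limma) and Ccl26 (0.42, adjusted p = 0.00553 by limma), and Ccl26 was also called by the methods' t-test (0.14, adjusted p = 0.0328).

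Receptors were compared as the other side of the pathway. Of 13 receptor genes, 5 were called by adjusted p, beside 44.1% of all rows. At 2-fold 2 were called, both higher in SP, beside 6.37% of all rows called higher. The other 3 were called below that size (Ccr2 and Ccr10 higher, Ackr4 lower). The call of Ccr10 was lost in 7 of the 14 alternatives that tested it, and that of Ackr4 when arrays were centred (-0.07). Ccr2, the receptor of the monocyte chemoattractants, rose 1.85-fold (7.79 ± 0.12 to 8.68 ± 0.27, SD, n = 4, adjusted p = 0.00124 by limma), with SP replicate 3 lowest, as for Ccl2. Ccr1 was bright in both groups (11.88 ± 0.61 and 12.47 ± 0.12) and differed by 0.59 (adjusted p = 0.103 by limma), although the groups did not overlap, and it was called with the arrays centred on their medians (0.87, adjusted p = 0.02 by limma). Ccr3 differed by -0.10 (adjusted p = 0.873 by limma), a sign that turned under both scalings and without PBS replicate 1. Ccr4, the receptor of Ccl17 and Ccl22, lay below every array median and differed by 0.17 (adjusted p = 0.157 by limma), with a call of 0.46 when arrays were centred (adjusted p = 0.00747 by limma).

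Atypical receptors bind chemokines without the usual signal through G proteins. Ackr1, best known from red cells and venules, rose 4.49-fold (5.93 ± 0.12 to 8.10 ± 0.32, SD, n = 4, adjusted p = 2.62e-05 by limma), and all 4 PBS values were below their array median. Ccrl2 lay at 11.77, 9.62, 12.35 and 12.32 in PBS and at 13.51, 13.45, 13.43 and 13.40 in SP. The PBS spread came from replicate 2, as for Ccl3, and the 3.81-fold rise (adjusted p = 0.0226 by limma) was 1.30 log2 units in place of 1.93 without that sample. Leaving out SP replicate 1 ended its call (adjusted p = 0.054 by limma), as did the methods' t-test (adjusted p = 0.0557). Ackr2, a scavenger of inflammatory CC chemokines, differed by -0.46 (adjusted p = 0.205 by limma).

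Genes with the most similar profile were named for each called chemokine, by the root mean square distance between row-centred log2 values over the 8 arrays. Ccl3 lay nearest to Gbp2 (0.17 log2 units) and Gbp7 (0.21), which encode interferon-inducible guanylate-binding proteins. Ccl4 lay nearest to Gpr84 (0.28), a receptor of medium-chain fatty acids, and Tnf (0.39), and Ccl5 to Irgm1 (0.16), an interferon-inducible GTPase, and Scimp (0.24). Ccl2 lay nearest to Timp1 (0.32), an inhibitor of metalloproteinases, and Fam20c (0.36). Ccl7 lay nearest to Ms4a6d (0.33) and Msr1 (0.35), a scavenger receptor of macrophages, and Ccl12 to Slc39a14 (0.23), a metal transporter, and Phf11a (0.25). For Ccl9 these were S100a4 (0.21) and Ticam2 (0.22), an adaptor of Toll-like receptors, and for Ccl17 the transcription factor gene Maf (0.20) and Gm13889 (0.24). No chemokine of the 10 was among the nearest genes of another.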

How the data were processed

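Per the study's methods, the authors made the deposited log2 expression values by RMA background correction, correction for GC content and sequence, quantile normalization and median polish, with probesets consolidated by gene or transcript identifier. The labels name Affymetrix Expression Console, RMA and Partek. The values are relative within an array, so a change of total RNA cannot be read from them. Background correction could not be varied, since scanner files were not used here. Groups and replicate numbers came from sample titles. Of 24625 rows, 19915 (80.9%) received a symbol by unversioned accession from RefSeq genes of GRCm38.p6. All rows were compared with limma 3.58.1 (R 4.3.3; lmFit, eBayes, no covariates, Benjamini-Hochberg over all rows), and figures were drawn with matplotlib 3.10.9 in Python 3.11.15. The fit was tested on simulated data. The number of arrays limits the precision. Alternatives were the plain test of the study's methods (called the methods' t-test), an intensity trend with a robust prior, the replicate number as a block, 2 other scalings, dim rows left out, and each sample left out.

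The 10 genes, the lists and the tests were chosen with earlier results of these data known. Named were the 10 genes, the other CC chemokines and receptors called at 2-fold or binding the 10, genes next to them, for each gene called at 2-fold the 2 nearest profiles, and list markers. Some listed genes are not reported here. Markers other than the 2 brightest of a list were named after their values were seen. Leaving out PBS replicate 2 and SP replicate 3 together was also chosen after seeing the data.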

Additional observations from a re-analysis of the deposited data

Results flagged for a closer look

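A single sample far from the other 3 of its group was found in 4 of 66 groups examined (each chemokine and receptor gene described, in PBS and in SP), where chance gives about 1 in 20. Ccl3 was at 9.72 in PBS replicate 2, against 11.63 to 11.73 in the other PBS samples. In SP replicate 4, Ccl17 was at 9.54 against 8.25 to 8.38, and Ccl22 at 7.18 against 6.09 to 6.11. Ccr2 was at 8.28 in SP replicate 3 against 8.78 to 8.84.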

How the results depend on the processing

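Across the 15 alternatives, all 8 called chemokine genes kept their direction and stayed called, by limma or, for 1 alternative, by the methods' t-test. The highest adjusted p was 0.0301, for Ccl9. With the arrays centred on their medians 18255 rows were called in place of 10860, and 2375 in place of 1568 were higher at 2-fold. The change of Ccl2 minus Ccl12 was 1.14 (adjusted exact permutation p = 0.0571) after another quantile normalization.

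Leaving out 1 sample at a time gave 8200 to 10907 called rows, of which 1425 to 1634 were higher and 2470 to 3029 lower at 2-fold. The pair changes then ran from 1.92 to 2.46 for Ccl4 minus Ccl3, 0.74 to 0.97 for Ccl2 minus Ccl7, 0.89 to 1.44 for Ccl2 minus Ccl12, 1.08 to 1.27 for Ccl9 minus Ccl6 and -1.42 to -1.22 for Ccl22 minus Ccl17. Adjusted exact permutation p-values were 0.0286 for all 5 pairs without any 1 PBS sample. Without any 1 SP sample they were 0.0357 for 4 pairs and 0.0571 for Ccl2 minus Ccl12, so 4 of 5 pairs were called. Without 1 sample, 7 or 8 chemokine genes were called at 2-fold.

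The sign turned in genes that were not called. Centred on medians, differences were 0.20 for Ccl6, 0.24 for Ccl25, 0.18 for Ccl28, 0.18 for Ccr3 and 0.23 for Ccr6. After another quantile normalization they were -0.087 for Ccl1, -0.010 for Ccl26, 0.20 for Ccr3 and -0.099 for Ccr8. Leaving out 1 sample at a time, Ccl6 ran from -0.27 (without PBS replicate 2) to 0.063 (without SP replicate 3) and was 0.0026 without PBS replicate 3. Ccl24 then ran from -0.018 to 0.36, Ccr3 from -0.54 to 0.42, Ccr6 from -0.12 to 0.0045 and Ccr8 from -0.029 to 0.12. Ccr8 was -0.038 without PBS replicate 2 and SP replicate 3 together. The causes were not tested.

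The deviations of same-numbered samples correlated at 0.016, 0.030, 0.350 and -0.274, and 1 of 4 correlated best with its own number. These values cannot tell whether same-numbered samples shared a batch. With the replicate number as a block, 9842 rows were called, 1558 higher and 2766 lower at 2-fold, and 8 chemokine genes remained called at 2-fold. Sign flips within numbers cannot give a p below 0.125 for the pairs. Signal over background limits Ccl12, Ccl20 and Ackr1, whose PBS values were all below the array medians. It also limits Ccl19 and Ccl22, with 3 of 4 PBS values below.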
